A study of Mus musculus with 12 samples.

Results

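Transcripts of 9 genes that encode the Fc receptors for IgG and IgE were followed across 4 fractions of monocytes and macrophages (Mo-Macs) sorted from skin with IgE-mediated chronic allergic inflammation (IgE-CAI). The genes were taken by their symbols from the 37775 genes of the count table, and all 9 passed the expression filter that left 22118 genes for testing. They comprised the IgG receptor genes Fcgr1, Fcgr2b, Fcgr3 and Fcgr4, the neonatal Fc receptor gene Fcgrt, the IgE-binding chains Fcer1a and Fcer2a, and the signalling subunits Fcer1g and Ms4a2. To induce IgE-CAI, WT BALB/c mice received 300 μg of anti-TNP IgE intravenously and, on the next day, 10 μg of TNP-conjugated OVA in the right ear and control OVA in the left ear. On day 5 post-challenge, Mo-Macs were sorted by FACS into Ly6ChiPD-L2lo classical monocytes, Ly6ChiPD-L2hi early classical monocyte-derived macrophages (CMDMs), Ly6CloPD-L2hi late CMDMs and Ly6CloPD-L2lo resident-like macrophages, with 3 libraries per fraction. The study used male mice 7 to 12 weeks old and gated the Mo-Macs as CD45+CD11b+SiglecF-Ly6G- cells, of which 5000 to 80000 were lysed per sample. All 4 fractions shared genotype, strain, IgE, challenge and day, so that no library came from unchallenged skin or from mice without the injected IgE. The labels do not say which libraries came from separate mice, and p-values measure the spread between these libraries only.

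Fc receptors bind the constant part of antibodies and thereby couple antibody specificity to the responses of myeloid cells. The activating IgG receptors encoded by Fcgr1, Fcgr3 and Fcgr4 signal through the γ-chain Fcer1g, which carries an immunoreceptor tyrosine-based activation motif (ITAM), whereas Fcgr2b carries an inhibitory motif (ITIM) in its own tail. Fcer1a binds IgE with high affinity and assembles with Fcer1g and, in mast cells and basophils, with the β-chain Ms4a2, while Fcer2a (CD23) is a C-type lectin that binds IgE with low affinity and Fcgrt protects internalised IgG and albumin from degradation.

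The coding sequences of the signalling motifs are shown because they separate the inhibitory receptor from the activating subunits. They were read from the principal GENCODE transcripts, with the codons of the motif tyrosines in capitals. The ITIM stretch of Fcgr2b covered codons 317 to 322 of 340. The ITAM stretch of Fcer1g covered codons 65 to 79 of 86, and that of Ms4a2 codons 210 to 223 of 235.
Fcgr2b ITIM: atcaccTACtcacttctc
Fcer1g ITAM: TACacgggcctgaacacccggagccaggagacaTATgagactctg
Ms4a2 ITAM: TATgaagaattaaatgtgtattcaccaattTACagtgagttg
No ITAM stretch was found in the coding sequences of the other 7 genes. The short ITIM pattern (isoleucine, leucine, valine or serine, any residue, tyrosine, any pair of residues, then isoleucine, leucine or valine) also matched 3 stretches of Fcgr1 and 1 each of Fcgr4, Fcgrt and Fcer1g, so that a match is a description only.

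Of the 9 genes, 5 lie on chromosome 1 of GRCm38. Fcgr2b (chr1:170958617-170976547), Fcgr4 (chr1:171018920-171029761), Fcgr3 (chr1:171051174-171064935) and Fcer1g (chr1:171229572-171234365) lie within 276 kb, and Fcer1a lies at chr1:173221284-173227214. Fcgr1 lies at chr3:96282909-96293969, Fcgrt at chr7:45092990-45103851, Fcer2a at chr8:3681737-3694175 and Ms4a2 at chr19:11615523-11623719. Only Fcgr4 is on the plus strand. Fcgr2b and Fcgr3 were the most alike of the 5 genes with immunoglobulin-like IgG- or IgE-binding domains, with 86.3% identical bases over 782 aligned bases of coding sequence against 60.5% to 66.2% for the other pairs. The longest stretch without a difference, shown because reads from it cannot be assigned to either gene, spanned 129 bases from base 278 to 406 of the Fcgr2b and from base 263 to 391 of the Fcgr3 coding sequence.
Fcgr2b and Fcgr3, identical stretch: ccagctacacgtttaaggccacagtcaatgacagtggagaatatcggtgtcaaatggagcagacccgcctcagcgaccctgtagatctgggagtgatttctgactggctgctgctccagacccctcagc
Of the 1627 different 50-base words in Fcgr3 coding transcripts, 166 (10.2%) also occurred in Fcgr2b and in no other gene. Counting could therefore have moved part of the reads between this pair, and their separate levels carry that uncertainty. Ms4a2 shared 63 of 2954 words (2.13%) with Ms4a4b, and Fcer2a shared 38 of 2483 (1.53%) with various other genes, so that their low counts carry such an uncertainty too. Fcgr1, Fcgr4, Fcgrt, Fcer1a and Fcer1g shared no such word with another gene.

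Levels are given as CPM after TMM normalization, that is, counts scaled to the effective size of each library, and differences as log2 fold changes from the quasi-likelihood test of edgeR, with p-values adjusted by Benjamini and Hochberg's method over all 22118 genes and a threshold of 0.05. Total counts per library ranged from 12537178 to 19844113, and 3 counts, the limit that a count of 0 allows, corresponded to 0.161 to 0.239 CPM, a limit that covers counting error only because the reads carry no molecular identifiers. All 10 monocyte/macrophage markers were counted in every fraction, and their summed level was 6789 to 10770 CPM in classical monocytes, late CMDMs and resident-like macrophages but 2834 to 4071 CPM in early CMDMs. The 6 keratinocyte markers summed to 17068 to 27240 CPM in early CMDMs and to 1868 to 4044 CPM in the other fractions, and the part of this in the levels of the early CMDM libraries was not tested. When each library was scaled by 10 leukocyte genes instead of TMM, the median log2 fold change of all genes shifted to 1.78 for early CMDMs against classical monocytes and to -1.60 for resident-like macrophages against early CMDMs, so that differences that involve early CMDMs are given with their value under that scaling where it turns them, changes the call or takes away most of the size.

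Each of the 9 genes differed among the 4 fractions (edgeR's quasi-likelihood test of any difference, adjusted p between 4.46e-07 for Fcer2a and 0.0330 for Fcgr1), beside 60.8% of all genes tested. A share near the background is not a result about these genes, and the pattern of each gene is therefore given below. Over the 6 comparisons of a pair of fractions, 25 differences passed the test. The genes are described in turn, beginning with the inhibitory receptor, Fcgr3, Fcgrt and the γ-chain, then Fcgr1 and Fcgr4, and then the IgE receptor chains.

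**Figure D1:**
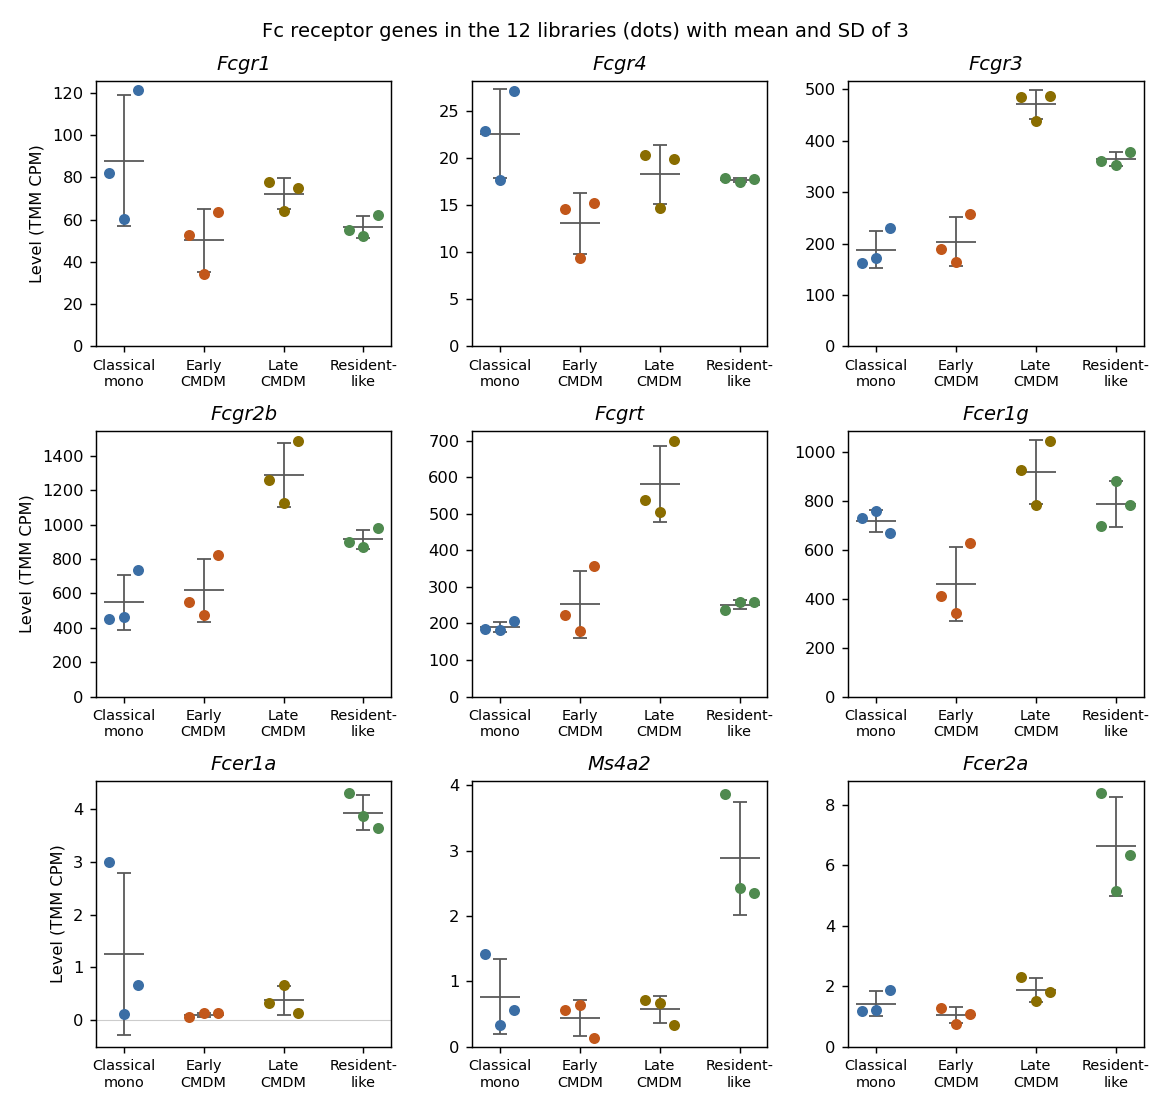
Level of each Fc receptor gene (vertical axes, TMM CPM) in the 4 fractions (horizontal axes), with 1 dot per library and the mean and SD of 3 libraries as line and whiskers. Fcgr2b, Fcgr3 and Fcgrt were highest in late CMDMs, Fcer1a, Ms4a2 and Fcer2a in resident-like macrophages, and the means of Fcgr1 and Fcgr4 in classical monocytes, an order that leukocyte gene scaling turns for early and late CMDMs.

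Fcgr2b, the inhibitory IgG receptor, had the most counts of the IgG receptor genes and was highest in late CMDMs. In classical monocytes its level was 451, 462 and 733 CPM in libraries 1 to 3, and in early CMDMs it was 551, 475 and 824 CPM. Late CMDMs had 1257, 1123 and 1488 CPM and resident-like macrophages 897, 872 and 978 CPM. The late CMDM libraries were all above those of every other fraction, the resident-like libraries were all above those of classical monocytes and early CMDMs, and the latter fractions overlapped. Fcgr2b was 2.35-fold higher in late CMDMs than in classical monocytes (log2 fold change 1.23, SE 0.21, adjusted p = 0.000297). Against early CMDMs it was 2.09-fold higher in late CMDMs (1.06, SE 0.21, adjusted p = 0.00111), a call that was lost when the libraries were scaled by leukocyte genes (0.23, adjusted p = 0.227), whereas early CMDMs were then higher than classical monocytes (1.92, adjusted p = 3.21e-10). The value for resident-like macrophages against classical monocytes was 0.74 (SE 0.21, adjusted p = 0.0169) and was lost without classical monocyte library 1 (0.63, adjusted p = 0.0780), classical monocyte library 2 (0.63, adjusted p = 0.0696) or resident-like library 3 (0.69, adjusted p = 0.0567). Against early CMDMs it was 0.57 (SE 0.21, adjusted p = 0.0348), which was lost without early CMDM library 1 (0.49, adjusted p = 0.121) or 2 (0.41, adjusted p = 0.152) or without resident-like library 1 (0.58, adjusted p = 0.0708) or 3 (0.52, adjusted p = 0.0945) and turned to -1.01 with leukocyte gene scaling. For resident-like macrophages against late CMDMs the value of -0.49 did not pass the test (95% interval -0.90 to -0.09, adjusted p = 0.0906), although no library overlapped, and passed with leukocyte gene scaling (-1.24, adjusted p = 2.85e-06). In bulk samples such as these, fewer cells that express a gene and less RNA per cell cannot be told apart.

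Fcgr3, an activating IgG receptor that depends on Fcer1g, moved with Fcgr2b. Its level was 162, 173 and 229 CPM in classical monocytes, against 189, 165 and 258 CPM in early CMDMs. It was 486, 439 and 488 CPM in late CMDMs and, for resident-like macrophages, 362, 353 and 379 CPM. The order was the same as for Fcgr2b, with early CMDMs and classical monocytes overlapping and late CMDMs apart from all others. Fcgr3 was 2.50-fold higher in late CMDMs than in classical monocytes (log2 fold change 1.32, SE 0.15, adjusted p = 6.06e-06) and 2.31-fold higher than in early CMDMs (1.21, SE 0.15, adjusted p = 1.98e-05). With leukocyte gene scaling the difference between late and early CMDMs was 0.36 (adjusted p = 0.0316), and early CMDMs were higher than classical monocytes by 1.88 (adjusted p = 4.58e-11). In resident-like macrophages it was 1.94-fold higher than in classical monocytes (0.95, SE 0.15, adjusted p = 0.000213) and 1.79-fold higher than in early CMDMs (0.84, SE 0.15, adjusted p = 0.000305), the last of which turned to -0.76 with that scaling. For resident-like macrophages against late CMDMs the value of -0.37 did not pass the test (95% interval -0.67 to -0.07, adjusted p = 0.0822), although no library overlapped. It passed with leukocyte gene scaling (-1.12, adjusted p = 1.39e-06) and with scaling by library size only (-0.50, adjusted p = 0.0151). Over the 12 libraries the log2 CPM of Fcgr2b and Fcgr3 had a Pearson correlation of 0.98, which is a description of libraries that share fractions and, for this pair, an identical stretch of sequence.

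Fcgrt, the receptor that recycles IgG, was higher in late CMDMs than in each of the other fractions. Its level was 184, 183 and 207 CPM in classical monocytes. Early CMDMs had 222, 179 and 356 CPM, late CMDMs 538, 506 and 699 CPM and resident-like macrophages 236, 258 and 260 CPM. Late CMDMs stood apart from all other libraries, resident-like macrophages lay above classical monocytes, and early CMDMs overlapped both of these. It was 3.04-fold higher in late CMDMs than in classical monocytes (log2 fold change 1.60, SE 0.20, adjusted p = 1.63e-05) and 2.30-fold higher than in early CMDMs (1.20, SE 0.20, adjusted p = 0.000255; 0.39 with leukocyte gene scaling, adjusted p = 0.0329). From late CMDMs to resident-like macrophages it fell by 1.21 on the log2 scale (SE 0.20, adjusted p = 0.000327). The log2 fold change of 0.40 for early CMDMs against classical monocytes (95% interval 0.02 to 0.78) did not pass the test at an adjusted p of 0.111, but did without early CMDM library 2 (0.61, adjusted p = 0.0115) and with leukocyte gene scaling (2.13, adjusted p = 2.18e-11). With that scaling resident-like macrophages were also lower than early CMDMs (-1.57, adjusted p = 2.46e-09) and higher than classical monocytes (0.56, adjusted p = 0.0119), neither of which passed with TMM (-0.0050, adjusted p = 0.987, and 0.39, adjusted p = 0.175). Its partner B2m, the light chain of the receptor and of MHC class I, had 3133 to 3503 CPM in late CMDMs, and its highest library of the other fractions had 2752 CPM. Endothelial cells are known to express Fcgrt, and the 6 endothelial markers, all of them counted, summed to 169 to 225 CPM in late CMDMs, 149 to 159 in early CMDMs, 77.0 to 83.4 in classical monocytes and 60.3 to 93.0 in resident-like macrophages. Of these 6, 5 were higher and 0 lower in late CMDMs than in classical monocytes, 1 was higher and 1 lower than in early CMDMs, and 5 were lower and 0 higher in resident-like macrophages than in late CMDMs. The 6 fibroblast markers summed to 2983 to 5579 CPM in the Ly6Chi fractions and to 275 to 498 CPM in the Ly6Clo fractions. The part of these cells in the level of Fcgrt was not tested.

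Fcer1g, the common γ-chain, was lowest in early CMDMs, with 412, 340 and 630 CPM. Classical monocytes had 730, 759 and 669 CPM, late CMDMs 929, 785 and 1045 CPM and resident-like macrophages 697, 883 and 785 CPM. All early CMDM libraries were below all others, and the other 3 fractions overlapped except that late CMDMs lay above classical monocytes. The level was lower in early CMDMs than in classical monocytes by a log2 fold change of -0.64 (SE 0.18, adjusted p = 0.00917), which turned to 1.09 with leukocyte gene scaling. It was higher in late than in early CMDMs by a log2 fold change of 1.00 (SE 0.18, adjusted p = 0.000591; 0.17 with leukocyte gene scaling, adjusted p = 0.342). Resident-like macrophages had a log2 fold change of 0.77 against early CMDMs (SE 0.18, adjusted p = 0.00254), which turned to -0.80 with leukocyte gene scaling. The value for late CMDMs against classical monocytes did not pass the test (0.36, 95% interval 0.00 to 0.71, adjusted p = 0.144), but did with leukocyte gene scaling (1.26, adjusted p = 3.93e-07). That for resident-like macrophages against late CMDMs did not pass either (-0.22, adjusted p = 0.401), but did with that scaling (-0.97, adjusted p = 2.47e-05).

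Fcgr1 and Fcgr4, which encode CD64 and the activating receptor FcγRIV, had their highest means in classical monocytes and their lowest in early CMDMs. This order of RNA levels held with TMM and turned with leukocyte gene scaling. By flow cytometry of the same fractions, the paper reports that surface CD64 protein rose from classical monocytes to CMDMs. The values here are of RNA only. Fcgr1 was at 82.1, 60.2 and 121 CPM in classical monocytes, against 52.7, 34.3 and 63.5 CPM in early CMDMs. Late CMDMs had 77.8, 64.1 and 74.9 CPM and resident-like macrophages 55.1, 52.1 and 62.2 CPM of Fcgr1. Classical monocytes overlapped all other fractions for Fcgr1 through library 2, whereas late CMDMs lay above early CMDMs and resident-like macrophages. Fcgr1 was lower in early CMDMs than in classical monocytes by -0.81 (SE 0.24, adjusted p = 0.0132), a call that was lost without classical monocyte library 3 (-0.50, adjusted p = 0.0644) or early CMDM library 2 (-0.58, adjusted p = 0.0607) and that turned to 0.95 with leukocyte gene scaling. None of the other 5 comparisons of Fcgr1 passed the test, although that of resident-like macrophages with classical monocytes (-0.64, adjusted p = 0.0690) did without classical monocyte library 2 (-0.85, adjusted p = 0.00953). With leukocyte gene scaling Fcgr1 was higher in late CMDMs than in classical monocytes (0.64, adjusted p = 0.00407) and lower in resident-like macrophages than in early CMDMs (-1.41, adjusted p = 2.40e-07) and late CMDMs (-1.10, adjusted p = 3.78e-05), and the value for late against early CMDMs turned to -0.31 (adjusted p = 0.146).

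The level of Fcgr4 was 22.9, 17.7 and 27.1 CPM in classical monocytes. Early CMDMs had 14.6, 9.34 and 15.2 CPM, late CMDMs 20.4, 14.7 and 19.9 CPM and resident-like macrophages 17.9, 17.5 and 17.7 CPM. All early CMDM libraries were below all classical monocyte and resident-like libraries, and the other pairs of fractions overlapped. The difference between early CMDMs and classical monocytes was -0.79 (SE 0.19, adjusted p = 0.00284) and turned to 0.98 with leukocyte gene scaling. For late against early CMDMs the value of 0.48 had an adjusted p of 0.0670, and it passed the test without early CMDM library 3 (0.60, adjusted p = 0.0419) or late CMDM library 2 (0.62, adjusted p = 0.0353), but turned to -0.37 with leukocyte gene scaling (adjusted p = 0.0935). For resident-like macrophages against early CMDMs 0.44 had an adjusted p of 0.0709, and it passed without early CMDM library 3 (0.56, adjusted p = 0.0422) and turned to -1.16 with leukocyte gene scaling (adjusted p = 5.56e-06). With that scaling Fcgr4 was also higher in late CMDMs than in classical monocytes (0.61, adjusted p = 0.00667) and lower in resident-like macrophages than in late CMDMs (-0.79, adjusted p = 0.00114). Fcgr1 and Fcgr4 had a Pearson correlation of 0.91 over the 12 libraries, whereas neither exceeded 0.28 with Fcgr2b or Fcgr3, again over libraries that share their fraction.

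Because all receptors of a library share its scaling, ratios between them do not depend on normalization. Per kilobase of the longest coding transcript, the ratio of Fcgr1 to Fcgr2b was 0.249, 0.178 and 0.226 in classical monocytes and 0.131, 0.0988 and 0.105 in early CMDMs. In late CMDMs it was 0.0848, 0.0781 and 0.0689 and in resident-like macrophages 0.0841, 0.0818 and 0.0870. Every classical monocyte library had a higher ratio than every other library, and every early CMDM library a higher one than the late CMDM and resident-like libraries, which overlapped. The ratio of Fcgr4 to Fcgr2b was likewise highest in classical monocytes, at 0.104 to 0.144, and lowest in late CMDMs, at 0.0369 to 0.0457, with early CMDMs at 0.0522 to 0.0749 and resident-like macrophages at 0.0512 to 0.0567. By contrast, the ratio of Fcgr3 to Fcgr2b was between 0.822 and 1.06 in all 12 libraries. With the median length of coding transcripts in place of the longest, this last ratio was 0.359 to 0.464, because Fcgr2b has transcripts from a median of 1520 to a longest of 3544 bases. These ratios are descriptions, and with 3 libraries against 3 an exact permutation test could not go below 0.1.

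**Figure D2:**
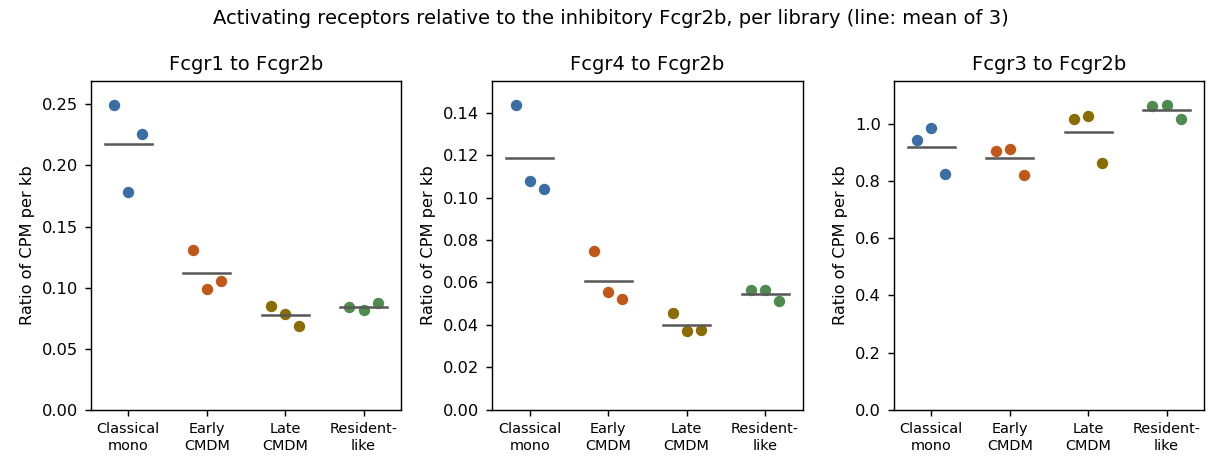
Ratio of each activating IgG receptor to the inhibitory Fcgr2b (vertical axes, ratio of CPM per kilobase of the longest coding transcript) by fraction, with 1 dot per library and a line at the mean of 3. The Fcgr1 and Fcgr4 ratios of the 3 classical monocyte libraries lie above those of the other 9 libraries, while the Fcgr3 ratio stays between 0.822 and 1.06.

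Per kilobase, Fcer1g was the highest of the 9 genes in each fraction, at a mean of 675 ± 221 CPM per kb (SD, n = 3) in early CMDMs and 1347 ± 190 in late CMDMs. Fcgr2b, Fcgr3 and Fcgrt followed at 108 to 364 CPM per kb, then Fcgr1 at 19.4 to 33.9 and Fcgr4 at 10.4 to 18.0. The γ-chain level per kb was 4.102 to 6.71 times the summed level of Fcgr1, Fcgr3 and Fcgr4 in classical monocytes and 3.18 to 4.37 times it in the other fractions, so that these ranges overlapped. The 3 genes Fcer1a, Ms4a2 and Fcer2a were at the bottom of the order in each fraction, and at most 3.95 CPM per kb on average. The order of the top 4 depended on the length used. With the median transcript length Fcgrt lay above Fcgr3 in classical monocytes, early CMDMs and late CMDMs. Fcgr2b then lay above Fcgr3 in resident-like macrophages. In each of these cases Fcgr3 was the higher with the longest.

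Fcer1a, the IgE-binding chain of the high-affinity receptor, was at 3 counts or fewer in 5 of the 12 libraries and highest in resident-like macrophages. Its counts were 80, 64 and 62 in resident-like macrophages (4.31, 3.88 and 3.64 CPM) and 1, 2 and 2 in early CMDMs (0.0618, 0.126 and 0.126 CPM). Late CMDMs had 4, 11 and 2 counts (0.318, 0.668 and 0.135 CPM), and in classical monocytes 49, 2 and 12 (3.01, 0.110 and 0.668 CPM). Classical monocyte library 1 stood far above the other libraries outside the resident-like fraction, and the resident-like libraries were above all others. By summed counts the resident-like level was 37.8 times that of early CMDMs, with a 95% counting interval of 15.95 to 118. In the test, resident-like macrophages were higher than early CMDMs by a log2 fold change of 5.14 (SE 0.90, adjusted p = 0.000348) and higher than late CMDMs by 3.33 (SE 0.73, adjusted p = 0.00383). Against classical monocytes the value of 1.68 (SE 0.59) had an adjusted p of 0.0556, which was 3.33 (adjusted p = 0.000112) without classical monocyte library 1. The lower level in early CMDMs than in classical monocytes (-3.46, SE 1.05, adjusted p = 0.0157) was lost without that library (-1.81, adjusted p = 0.0919) and without early CMDM library 1 (-3.20, adjusted p = 0.0544), 2 (-3.60, adjusted p = 0.0537) or 3 (-3.60, adjusted p = 0.0503), or with leukocyte gene scaling (-1.79, adjusted p = 0.174). For late CMDMs against classical monocytes the value of -1.66 (adjusted p = 0.142) passed the test only without classical monocyte library 2 (-2.21, adjusted p = 0.00843).

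Ms4a2, the β-chain, was low in the same libraries as Fcer1a. Its level was 3.88, 2.42 and 2.35 CPM in resident-like macrophages and 1.41, 0.329 and 0.557 CPM in classical monocytes. Early CMDMs had 0.556, 0.631 and 0.126 CPM and late CMDMs 0.716, 0.668 and 0.337 CPM. The resident-like libraries were above all others, and the other fractions overlapped. Ms4a2 was 3.82-fold higher in resident-like macrophages than in classical monocytes (log2 fold change 1.93, SE 0.44, adjusted p = 0.00389), 6.50-fold higher than in early CMDMs (2.70, SE 0.49, adjusted p = 0.000270) and 5.02-fold higher than in late CMDMs (2.33, SE 0.47, adjusted p = 0.00166). With leukocyte gene scaling the difference from early CMDMs was 1.06 (adjusted p = 0.0677). Over the 12 libraries the log2 CPM of Fcer1a and Ms4a2 had a Pearson correlation of 0.90.

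Markers of mast cells, which carry the complete high-affinity IgE receptor, moved with these genes. The 7 mast cell markers were all counted in every fraction, only Mrgprb2 being at 0 in a library (1 of late CMDMs), and summed to 120 to 229 CPM in resident-like macrophages, 45.3 to 93.5 in classical monocytes, 19.6 to 25.8 in early CMDMs and 15.6 to 46.6 in late CMDMs. The highest value in classical monocytes belonged to library 1, as for Fcer1a and Ms4a2. Of the 6 mast cell markers tested, 4 were higher in resident-like macrophages than in classical monocytes, 6 than in early CMDMs and 6 than in late CMDMs, and none were lower. Basophil markers summed to 32.0 to 60.9 CPM in resident-like macrophages and to 10.0 to 37.7 in the other fractions. Of the 7 basophil markers 4 were tested, of which 1 was higher in resident-like macrophages than in classical monocytes and all 4 were higher than in early CMDMs and than in late CMDMs, with 0 lower. The defining proteases of basophils were at or near 0, with Prss34 at 0 in 11 of 12 libraries and Mcpt8 between 0 and 1.06 CPM. The gate did not name a mast cell marker, and the part of mast cells and basophils in the levels of Fcer1a and Ms4a2 was not tested.

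**Figure D3:**
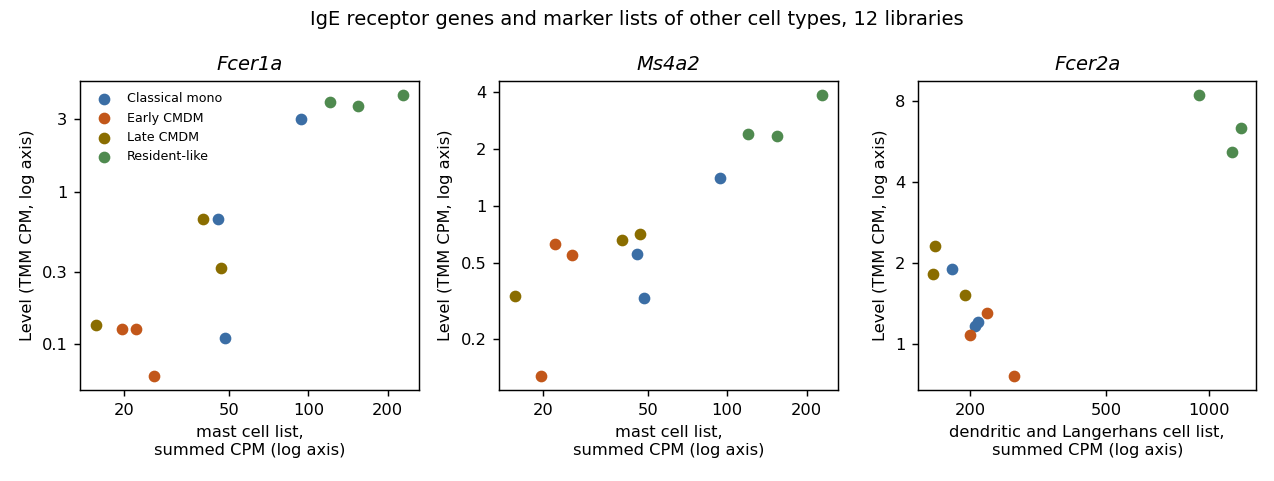
Level of Fcer1a and Ms4a2 against the summed level of 7 mast cell markers, and of Fcer2a against that of 7 dendritic and Langerhans cell markers (TMM CPM, log axes), with 1 dot per library coloured by fraction. The resident-like libraries have the highest values on both axes of all 3 plots, and classical monocyte library 1 lies nearest to them for Fcer1a and Ms4a2.

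Fcer2a, the low-affinity IgE receptor, was also highest in resident-like macrophages, with 8.40, 5.15 and 6.35 CPM. Classical monocytes had 1.17, 1.21 and 1.89 CPM, early CMDMs 1.30, 0.758 and 1.07 CPM and late CMDMs 2.31, 1.52 and 1.82 CPM. The resident-like libraries did not overlap any other, late CMDMs lay above early CMDMs, and classical monocytes overlapped both. It was 4.64-fold higher in resident-like macrophages than in classical monocytes (log2 fold change 2.21, SE 0.26, adjusted p = 7.06e-06), 6.33-fold higher than in early CMDMs (2.66, SE 0.27, adjusted p = 6.62e-07) and 3.56-fold higher than in late CMDMs (1.83, SE 0.25, adjusted p = 5.39e-05). B cells are a known source of Fcer2a, and the 6 B cell and plasma cell markers summed to 9.63 to 11.9 CPM in resident-like macrophages and 6.88 to 11.7 in the other fractions. The 7 dendritic and Langerhans cell markers, all of them counted, summed to 932 to 1238 CPM in resident-like macrophages against 156 to 269 CPM elsewhere, led by Cd207. Of these 7, 2 were higher and 2 lower in resident-like macrophages than in classical monocytes, 5 were higher and 0 lower than in early CMDMs, and 4 were higher and 0 lower than in late CMDMs. Their part in the level of Fcer2a was not tested. With leukocyte gene scaling the differences of Fcer2a from early and late CMDMs were 1.05 and 1.07 (adjusted p = 0.00192 and 0.00181). The value for early CMDMs against classical monocytes, -0.45 with TMM (adjusted p = 0.269), turned to 1.32 with that scaling (adjusted p = 0.000634). For late CMDMs against classical monocytes 0.38 (adjusted p = 0.344) became 1.30 (adjusted p = 0.000635). For late against early CMDMs 0.83 (adjusted p = 0.0541) turned to -0.020 (adjusted p = 0.958).

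The share of the 9 genes that passed the test in each comparison of a pair of fractions was read against all genes tested. For early CMDMs against classical monocytes 4 genes were lower and 0 higher, beside 20.6% of all genes lower, 24.2% higher and 44.9% called in either direction. With leukocyte gene scaling 7 were higher and 0 lower, beside 20704 of all 22118 genes called, 97.8% of those higher. Libraries did not overlap for 2 of the 9, beside 54.4% of all genes. In late CMDMs 3 were higher and 0 lower than in classical monocytes, beside 18.1% of all genes higher, 17.5% lower and 35.6% in either direction. This became 7 higher and 0 lower with that scaling, beside 16828 genes called, 93.9% of those higher, and 4 of the 9 did not overlap, beside 47.7%. Against early CMDMs 4 were higher and 0 lower in late CMDMs, beside 14.4%, 17.5% and 31.9% of all genes. This became 2 higher and 0 lower, beside 15371 genes called, 1.39% of those higher, and 7 did not overlap, beside 49.0%.

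Resident-like macrophages had 4 genes higher and 0 lower than classical monocytes, beside 10.8% of all genes higher, 12.9% lower and 23.7% in either direction. This became 5 higher and 0 lower with leukocyte gene scaling, beside 4154 genes called, 60.3% of those higher, and 6 of the 9 did not overlap, beside 34.6%. Against early CMDMs 6 were higher and 0 lower, beside 21.4%, 25.1% and 46.6% of all genes. This became 2 higher and 6 lower, beside 20269 genes called, 1.46% of those higher, and 7 did not overlap, beside 55.9%. Against late CMDMs 3 were higher and 1 lower, beside 12.7%, 15.5% and 28.1%. This became 3 higher and 6 lower, beside 14863 genes called, 3.62% of those higher, and 7 did not overlap, beside 43.1%. As the comparisons share libraries, their counts are not independent of each other.

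**Figure D4:**
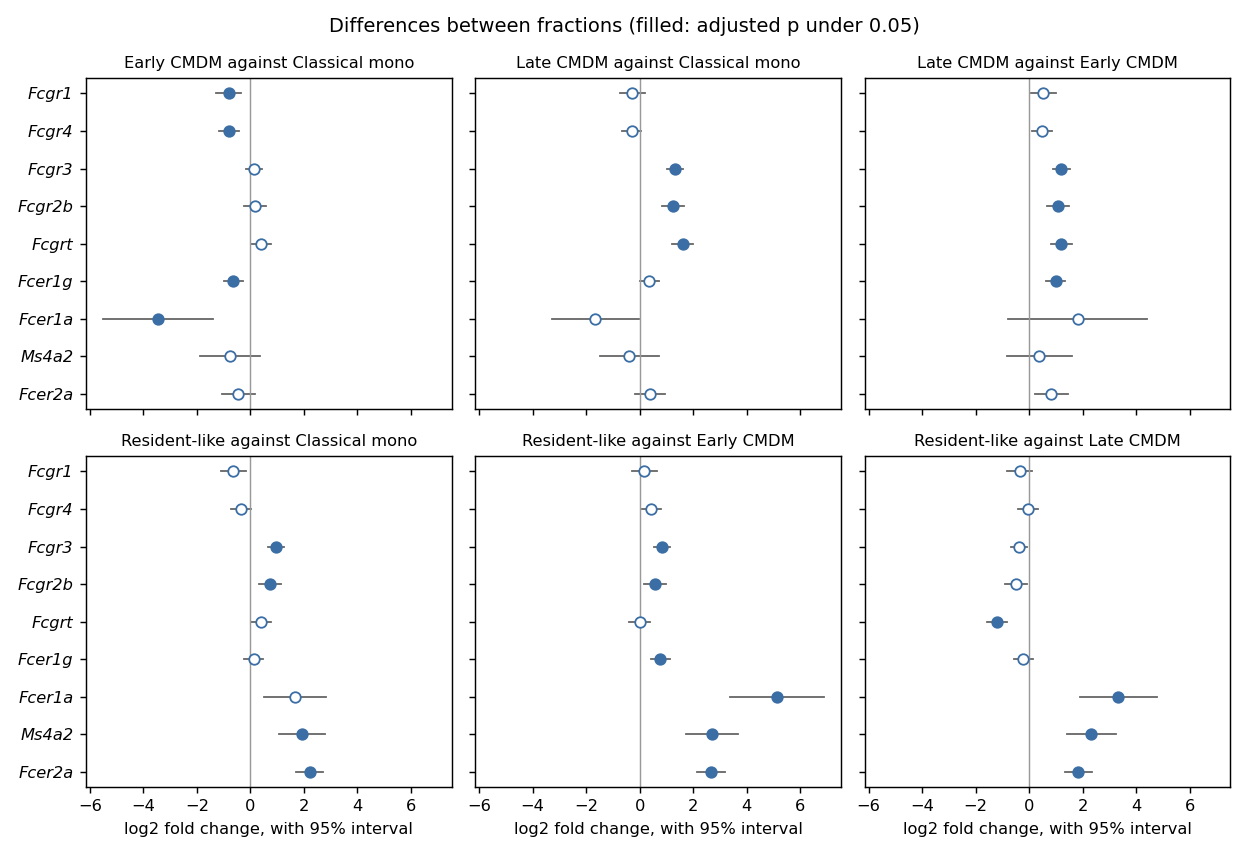
Log2 fold change of each Fc receptor gene (dots, horizontal axes) with its 95% interval (lines) in the 6 comparisons of a pair of fractions, filled where the adjusted p of edgeR's quasi-likelihood test was under 0.05. Fcgr2b, Fcgr3 and Fcgrt lie to the right in late CMDMs, and Fcer1a, Ms4a2 and Fcer2a in resident-like macrophages, while the negative values of Fcgr1, Fcgr4 and Fcer1g in early CMDMs turn positive when libraries are scaled by leukocyte genes.

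The 250 bases before the transcription start of each gene were taken from the RefSeq promoters of GRCm38.p6, in which all 9 genes were found with 12 starts in all. They were searched on both strands for GAGGAA, the core of PU.1 sites in myeloid genes, for AGATAA or TGATAA, bound by GATA factors, and for the STAT6 motif, TTC and GAA with 4 bases between them. GAGGAA was found for 4 of the 9 genes, Fcgr1, Fcgr3, Fcgr4 and Fcer1a, and in 23.3% of 32851 promoters. A GATA word was found for Fcer1a and Ms4a2 and in 16.6% of promoters, and the STAT6 motif for 1 start of Fcer2a and in 5.85% of promoters. The receptor pair with the highest correlation, Fcgr2b with Fcgr3 (Pearson correlation 0.98), is not shown, and of its genes only Fcgr3 held GAGGAA. The promoters of Fcgr1 with Fcgr4 (0.91) and of Fcer1a with Ms4a2 (0.90) are shown 5′ to 3′ on the strand of the gene. GAGGAA and the GATA words, or their reverse complements, are in capitals in these promoters, and none of them overlap. The promoters shown are Fcgr1 at chr3:96293970-96294219 (minus strand), Fcgr4 at chr1:171018676-171018925 (plus strand), Fcer1a at chr1:173227230-173227479 (minus strand) and Ms4a2 at chr19:11623720-11623969 (minus strand).
Fcgr1: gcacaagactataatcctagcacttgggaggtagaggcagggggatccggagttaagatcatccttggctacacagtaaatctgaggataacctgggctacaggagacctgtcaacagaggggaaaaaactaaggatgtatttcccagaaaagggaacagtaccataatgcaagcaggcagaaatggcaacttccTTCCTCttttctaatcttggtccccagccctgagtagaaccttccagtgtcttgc
Fcgr4: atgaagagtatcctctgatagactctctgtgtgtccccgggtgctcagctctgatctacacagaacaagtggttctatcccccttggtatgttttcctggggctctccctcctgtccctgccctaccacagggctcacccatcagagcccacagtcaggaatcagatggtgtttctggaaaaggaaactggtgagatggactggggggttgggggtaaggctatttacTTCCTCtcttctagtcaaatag
Fcer1a: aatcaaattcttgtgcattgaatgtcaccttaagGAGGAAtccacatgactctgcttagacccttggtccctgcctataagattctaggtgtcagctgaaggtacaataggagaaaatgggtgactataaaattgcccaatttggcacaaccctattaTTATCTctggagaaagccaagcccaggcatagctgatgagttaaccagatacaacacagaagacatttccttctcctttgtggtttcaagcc
Ms4a2: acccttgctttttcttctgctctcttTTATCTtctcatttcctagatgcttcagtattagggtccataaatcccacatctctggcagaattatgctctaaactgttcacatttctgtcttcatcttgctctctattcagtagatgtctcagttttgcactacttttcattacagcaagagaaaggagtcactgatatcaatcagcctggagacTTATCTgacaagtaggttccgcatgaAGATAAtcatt
In the Fcgr1 and Fcgr4 promoters the word stands on the strand opposite to the gene, within the last part before the start. Fcer1a holds 1 GAGGAA and 1 GATA word and Ms4a2 holds 3 GATA words. These are matches of letters and say nothing of whether a factor binds there.

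The genes whose log2 CPM over the 12 libraries was most alike to each receptor, 5 per receptor by Pearson correlation, are given as a description, since all of them share the 4 fractions and the scaling of the libraries. For Fcgr2b they were Akr1a1, Abhd12, Gatm, Fcgr3 and Bmp2k (0.98 to 0.99), and for Fcgr3 they were Vps26a, Pip4p1, Zfand2a, Vps29 and Arhgap31 (0.98 to 0.99). Fcgrt was most like Lamp1, Slc9a9, Gprc5c, Bin1 and Galc (0.97 to 0.98) and Fcer1g most like Npc2, Nrbf2, Tnfaip8l2, Arpc3 and Anxa6 (0.94 to 0.96). Lamp1, Galc and Npc2 encode lysosomal proteins. Fcgr1 was nearest to Mxd1, Tmem120a, Sting1, Tcirg1 and Ap5s1 (0.92 to 0.94), and Fcgr4 to Ap3m2, Bmf, Tnfrsf14, Snx17 and LT629148.7 (0.94 to 0.97). For the IgE receptor chains, Fcer1a was nearest to Ffar4, Cpa3, Scimp, Tnfsf9 and Thoc1 (0.94 to 0.96) and Ms4a2 to Cpa3, Iqgap3, Yy1, Cd72 and Gm16553 (0.92 to 0.93). Cpa3, which encodes the carboxypeptidase of mast cell granules and is also made by basophils, was the gene found for both. Among the genes nearest to Fcer2a were Flrt3, Ctbp2, Commd8 and Mmp25 (0.96 to 0.97).

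A list of 59 genes that act with these receptors was then examined, of which 55 were tested. It held 26 kinases and adaptors of ITAM signalling, 12 inhibitory phosphatases and adaptors, 7 other ITAM adaptors and receptors coupled to Fcer1g, and 14 other immunoglobulin receptors and partners. For early CMDMs against classical monocytes 3 were higher and 38 lower, with a median log2 fold change of -0.87 beside -0.01 over all genes tested (44.9% of them called). With leukocyte gene scaling 36 were higher and 9 lower, beside 97.8% higher among all 20704 genes called. Late CMDMs had 34 higher and 3 lower than early CMDMs (median 0.54 beside 0.02, background 31.9%). This became 1 higher and 20 lower with that scaling, beside 1.39% higher among 15371 called. Against classical monocytes late CMDMs had 8 higher and 28 lower (median -0.39 beside -0.01, background 35.6%), which became 31 and 11, beside 93.9% higher among 16828 called. Resident-like macrophages had 38 higher and 4 lower than early CMDMs (median 0.97 beside 0.03, background 46.6%), which became 5 and 32, beside 1.46% higher among 20269 called. They had 26 higher and 7 lower than late CMDMs (median 0.41 beside 0.00, background 28.1%), which became 5 and 27, beside 3.62% higher among 14863 called. Against classical monocytes they had 13 higher and 18 lower (median -0.05 beside 0.00, background 23.7%), and 14 and 16 with that scaling, beside 60.3% higher among 4154 called. Which direction prevailed in the list thus depended on the scaling, except in the last comparison. In the comparisons where it turned, the direction with leukocyte gene scaling was that of most genes called. The turn is therefore not a result about the list.

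By role and with TMM, the ITAM kinases and adaptors were lower in early CMDMs than in classical monocytes for 19 of 26 genes and higher for 1. The inhibitory phosphatases and adaptors were lower for 9 of 12 and higher for 2, beside 20.6% of all genes lower and 24.2% higher. Both roles had more lower than higher genes also in late CMDMs against classical monocytes, with 16 lower and 3 higher and with 6 lower and 3 higher. Of all genes, 17.5% were lower and 18.1% higher there. Counts by role were not taken with leukocyte gene scaling, which turned the direction of the whole list in both comparisons. The kinases Syk and Lyn and the phosphatases Inpp5d (SHIP-1) and Ptpn6 (SHP-1) are named for their known roles at ITAM and ITIM motifs and were chosen after their values were seen. Syk, which binds the phosphorylated ITAM, had 479 ± 75.1 CPM (SD, n = 3) in classical monocytes, 135 ± 28.9 in early CMDMs, 206 ± 13.5 in late CMDMs and, for resident-like macrophages, 288 ± 43.3 CPM. Lyn, the kinase that phosphorylates the motifs, had 240 ± 5.71, 52.6 ± 12.1, 82.5 ± 3.46 and 136 ± 12.3 CPM in the same order, and its own value with leukocyte gene scaling was not taken. Against classical monocytes the log2 fold change of Syk was -1.83 in early CMDMs (SE 0.16, adjusted p = 1.44e-07) and -1.22 in late CMDMs (SE 0.15, adjusted p = 1.44e-05), both of which were lost with leukocyte gene scaling (-0.06, adjusted p = 0.670, and -0.30, adjusted p = 0.0617). Inpp5d, which is recruited by the ITIM of Fcgr2b, had 155 ± 25.1, 51.4 ± 13.4, 97.3 ± 7.52 and 127 ± 24.4 CPM, and Ptpn6 128 ± 8.10, 38.1 ± 6.64, 59.3 ± 5.11 and 102 ± 7.64 CPM. In late CMDMs against classical monocytes, where Fcgr2b rose, the log2 fold change of Inpp5d was -0.67 (SE 0.17, adjusted p = 0.00689), which turned to 0.25 with leukocyte gene scaling. That of Ptpn6 was -1.11 (SE 0.12, adjusted p = 1.92e-06), which was lost with that scaling (-0.20, adjusted p = 0.2001).

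**Figure D5:**
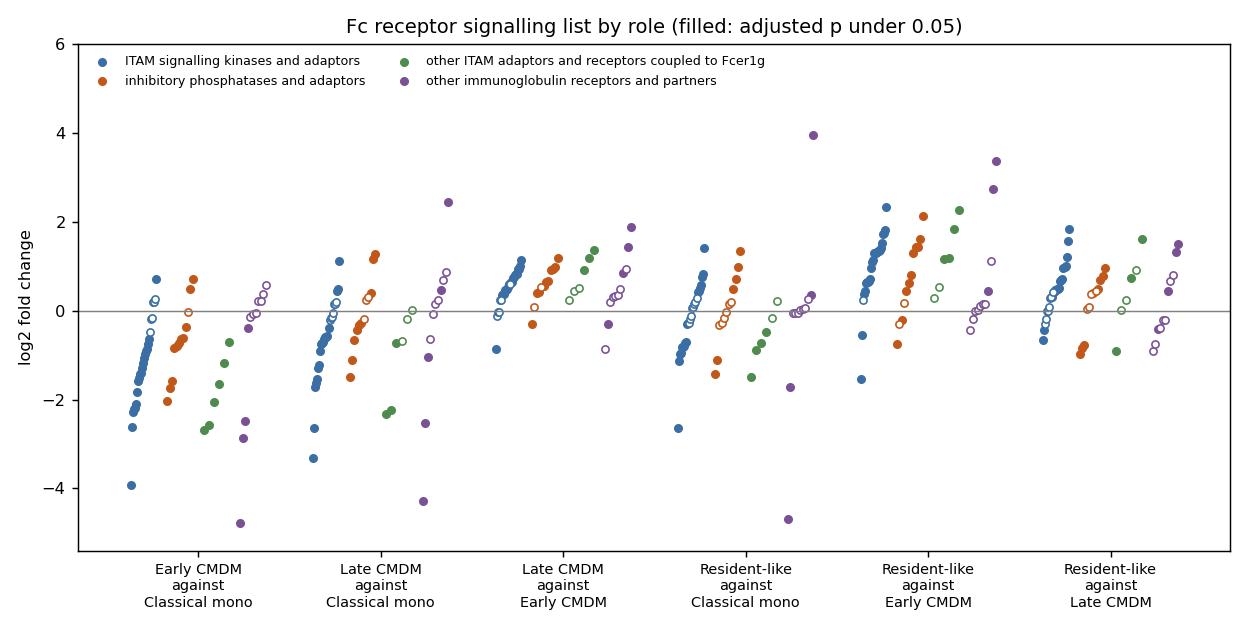
Log2 fold change (vertical axis) of the 55 tested genes of the Fc receptor signalling list in the 6 comparisons of a pair of fractions (horizontal axis), coloured by role and filled where the adjusted p was under 0.05. Most genes lie below 0 in early CMDMs against classical monocytes (38 lower, 3 higher) and above 0 in resident-like macrophages against early CMDMs (38 higher, 4 lower), directions that scaling by leukocyte genes turns to 9 lower and 36 higher and to 5 higher and 32 lower. Of all genes called with that scaling, 97.8% and 1.46% were higher in these comparisons.

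Among the genes of the list that passed the test without overlap of libraries, Fcrls, an Fc receptor-like gene, had the largest rise in 4 of the 6 comparisons. It had 6.27 to 6.97 CPM in classical monocytes, 9.57 to 10.6 in early CMDMs, 24.3 to 44.5 in late CMDMs and, for resident-like macrophages, 83.4 to 143 CPM, with no overlap between any pair of fractions. The log2 fold change was 3.95 for resident-like macrophages against classical monocytes (SE 0.25, adjusted p = 7.77e-08) and 2.46 for late CMDMs against classical monocytes (SE 0.25, adjusted p = 3.95e-06). Card9, an adaptor downstream of Syk, and Dok2, an inhibitory adaptor, had 61.5 ± 2.78 and 118 ± 8.61 CPM in resident-like macrophages against 23.0 ± 3.67 and 46.4 ± 1.60 CPM in classical monocytes. With TMM, Rasa1 and Inppl1 (SHIP-2), of the inhibitory group, were highest in late CMDMs, at 123 ± 5.40 and 78.1 ± 9.38 CPM. They were 2.41-fold and 2.23-fold higher there than in classical monocytes (adjusted p = 1.10e-08 and 4.34e-05). With leukocyte gene scaling these log2 fold changes were 2.19 and 2.07. That scaling shifted the median of all genes for late against early CMDMs to -0.85, and the order of Rasa1 and Inppl1 between these fractions was not examined under it. Plcg1 and Rasa1 had the largest rises of the list from classical monocytes to early CMDMs, with a log2 fold change of 0.71 each. Plcg1 went from 15.9 ± 1.25 to 26.1 ± 1.15 CPM, and was lowest in resident-like macrophages, at 8.997 ± 1.01 CPM.

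The largest falls from classical monocytes were those of Fcrla, an Fc receptor-like gene known from B cells, and of Lat, an adaptor of T cells, NK cells and mast cells, with log2 fold changes of -4.78 and -3.93 in early CMDMs, -4.29 and -3.32 in late CMDMs and -4.68 and -2.63 in resident-like macrophages. Fcrla had 37.9 to 67.9 CPM in classical monocytes and 1.64 to 3.50 CPM in the other fractions, and Lat 14.3 to 16.5 CPM against 0.821 to 2.79 CPM. Fcrl6, which is known from cytotoxic lymphocytes, had 2.14 to 5.45 CPM in classical monocytes and 0.269 to 1.27 CPM elsewhere. In the same libraries the 5 NK cell markers summed to 293 to 506 CPM, against 12.8 to 25.6 CPM elsewhere, and the 5 T cell markers to 94.5 to 134 CPM, against 12.1 to 24.8 CPM. The 6 B cell and plasma cell markers summed to 10.8 to 11.7 CPM there, against 6.88 to 11.9 CPM elsewhere. The part of these cells in the levels of Fcrla, Lat and Fcrl6, or of Fcgr3, Fcer1g and the other receptor genes in classical monocytes, was not tested. Fgr and Clec4e, a kinase and a lectin receptor that uses Fcer1g, also had their highest levels in classical monocytes, at 143 ± 13.2 and 553 ± 112 CPM, and were higher in resident-like macrophages than in late CMDMs (log2 fold changes 1.85 and 1.60, adjusted p = 4.04e-07 and 6.78e-06).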

How the data were processed

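RNA of the 12 sorted samples was sequenced in bulk. The authors trimmed reads with cutadapt 4.1, aligned them with Bowtie2 2.4.5 to reference RNA of GRCm38 (Ensembl release 101) and deposited raw counts summed by gene symbol, without molecular identifiers. Total counts ranged from 12537178 to 19844113. From these counts, genes with low values were filtered by edgeR (4.0.16, R 4.3.3), libraries were scaled by TMM, and edgeR's quasi-likelihood test was fitted to all 12 libraries with 1 coefficient per fraction and Benjamini-Hochberg adjustment. CPM are counts scaled by TMM library size. The script was tested on simulated data. Syk, Lyn, Inpp5d, Ptpn6 and B2m of the signalling list were named for their known roles. Its other genes were named where they passed the test without overlap of libraries and were among the 3 with the largest change per direction and comparison. The 5 genes most like each receptor were taken by Pearson correlation, of which 1 for Fcer2a is not reported here. The receptor genes and all lists were chosen with earlier results of these data known. Levels per kilobase used GENCODE transcript lengths, and promoters came from RefSeq (GRCm38.p6). Alternatives comprised other scalings (RLE, library size only, DEGES, and 10 leukocyte genes), filters, thresholds, a replicate block, single pairs of fractions, DESeq2 (1.42.0) and leaving out each library. Replicate numbers were not taken to pair the samples, as described in the closing section.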

Additional observations from a re-analysis of the deposited data

How the results depend on the processing

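Of the 25 differences of the receptor genes that passed the test, 14 did so under each scaling, filter, model and left-out library that gave a value, and 7 were lost or reversed only by leukocyte gene scaling. The other 4 were those of Fcgr1 and Fcer1a in early CMDMs against classical monocytes and those of Fcgr2b in resident-like macrophages against classical monocytes and early CMDMs. The cause was not tested.

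With leukocyte gene scaling, values for early CMDMs against classical monocytes reversed to 0.95 (Fcgr1), 0.98 (Fcgr4), 1.32 (Fcer2a), 1.09 (Fcer1g) and 1.01 (Ms4a2). For late CMDMs against classical monocytes they reversed to 0.64 (Fcgr1), 0.61 (Fcgr4), 0.51 (Ms4a2) and 0.25 (Inpp5d), and against early CMDMs to -0.31 (Fcgr1), -0.37 (Fcgr4), -0.020 (Fcer2a) and -0.51 (Ms4a2). For resident-like macrophages against early CMDMs they reversed to -1.41 (Fcgr1), -1.01 (Fcgr2b), -0.76 (Fcgr3), -1.16 (Fcgr4) and -0.80 (Fcer1g). The receptor genes called numbered 7 for early and 7 for late CMDMs against classical monocytes, 2 for late against early CMDMs and 9 (3 higher and 6 lower) for resident-like macrophages against late CMDMs, and 21 genes of the signalling list were called for late against early CMDMs. The share of higher genes among all called, 54.0%, 50.8%, 45.1%, 45.7%, 46.0% and 45.1% in the order of the comparisons in the plot of fold changes, became 97.8%, 93.9%, 1.39%, 60.3%, 1.46% and 3.62%, and with library size only the last 3 became 24.1%, 31.5% and 28.001%. With DEGES the share for resident-like macrophages against early CMDMs was 35.9%. With library size only, Fcer1g in resident-like macrophages against classical monocytes was -0.041.

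Without a filter 2 receptor genes were called for early CMDMs against classical monocytes, and with at least 10 counts in every library, which leaves no value for Fcer1a and Ms4a2, 2 for resident-like against late CMDMs. With 6 libraries alone 7 were called in the latter and Fcgrt in resident-like macrophages against early CMDMs was 0.015. At an adjusted p of 0.01, 2 were called for early CMDMs against classical monocytes. When the log2 fold change also had to reach 1, 1 was called there, and 2 and 3 for resident-like macrophages against classical monocytes and early CMDMs. That threshold called 25, 18, 7, 10, 27 and 7 genes of the signalling list in the same order of comparisons. With the median transcript length the median ratio of Fcgr3 to Fcgr2b was 0.412 in classical monocytes, 0.394 and 0.444 in early and late CMDMs and 0.463 in resident-like macrophages.

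Leaving out 1 library gave 3 to 4, 3 to 4, 4 to 5, 3 to 4, 5 to 7 and 4 to 4 receptor genes and 38 to 41, 31 to 36, 26 to 39, 28 to 31, 38 to 44 and 24 to 29 genes of the signalling list. It reversed only values that did not pass the test. These ranged from -0.76 to 0.37 (Ms4a2) and from -0.49 to 0.025 (Fcgr1) for late CMDMs against classical monocytes, from -0.089 to 0.44 (Fcgr2b) and from -0.078 to 0.29 (Fcgr3) for early CMDMs against classical monocytes, from -0.058 to 0.71 (Ms4a2) for late against early CMDMs, from -0.045 to 0.38 (Fcgr1) and from -0.20 to 0.33 (Fcgrt) for resident-like macrophages against early CMDMs, and from -0.18 to 0.036 (Fcgr4) against late CMDMs.

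The 18 correlations between samples with the same replicate number were above 0 for 16 and over 0.1 for 4 (-0.0987 to 0.248, median 0.0589, against -0.0314 for the 36 other pairs), and 9 of 12 samples correlated best with a sample of their own number. As not every pair exceeded 0.1, the numbers were not taken as pairing, although a weak shared deviation is a hint in the data. In each fraction library 3 had the highest level of Fcgr2b, Fcgr3 and Fcgrt, and library 2 the lowest of Fcgr1 and Fcgr4. The overlaps of libraries and the tests without a replicate block leave this out of account. With the replicate block, 7 receptor genes were called for late against early CMDMs and 7 for resident-like macrophages against classical monocytes, Fcgr1 among them (-0.59, adjusted p = 0.00432). Fcgr2b (-0.48, adjusted p = 0.00668) and Fcgr3 (-0.37, adjusted p = 0.0213) were then lower in resident-like macrophages than in late CMDMs, and Fcgrt in resident-like macrophages against early CMDMs was 0.044. Depth limited Fcer1a most, with 3 counts or fewer in 5 of 12 libraries.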
